A study of Mus musculus with 4 samples.

Results

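Bidirectional promoters of protein-coding gene pairs were examined in a map of histone H3 trimethylated at lysine 4 (H3K4me3) from mouse left cerebral cortex. A pair consisted of 2 protein-coding genes on opposite strands, transcribed away from each other, whose 5'-most annotated starts lay at most 1000 bases apart. The annotation, GENCODE release M21 on the mm10 build, held 755 such pairs among 21938 protein-coding genes. They comprised 1489 genes, 6.79% of all, because 21 genes took part in more than 1 pair. The windows of neighbouring pairs overlapped in places, which left 734 separate loci, and the windows of 83 pairs also held the start of another gene. A peak was assigned to a pair when it overlapped, by at least 1 base, the interval between the starts or the 500 bases beyond either start. This rule took 768 of the 25446 peaks in the list called on both pools of tissue, termed the replicated list here. It took 781 of 21573 peaks in the list of pool J alone and 757 of 24508 peaks in the list of pool I alone. The values of the 768 peaks are compared below with those of 11948 other peaks that lay within 500 bases of the 5'-most start of a protein-coding gene outside the pairs. The genes outside the pairs include 893 whose 5' end overlaps that of a protein-coding gene on the other strand by up to 1000 bases.

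The tissue came from female B6CASTF1/J mice, a cross between the strains C57BL/6J and CAST/EiJ, aged 2 months. Chromatin was precipitated with an antibody against H3K4me3 and sequenced as 4 libraries, 2 technical replicates from each of pool J and pool I. Each pool was made of 4 biosamples, and all libraries carried the same donor record. Whether the biosamples came from separate animals is not stated, so differences between the pools can be technical. There was no treatment or second genotype, and the comparison is therefore between pairs and other promoters within the same libraries, repeated in each pool. A peak's width is its extent in bases, and its enrichment is the authors' ratio for the peak, taken here as fold over a control. The labels and files used here give no read numbers, so the depth behind the peaks is unknown.

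H3K4me3 is laid down at active and poised promoters by SET1 and MLL complexes and sits on the nucleosomes beside a start site, with the strongest signal usually on the first nucleosomes inside the transcribed gene. A promoter that serves one gene has a gene body on one side only, whereas a promoter shared by a divergent pair has a gene body on both sides. Divergent pairs are common in mammals, rest mostly on CpG islands, and often hold housekeeping genes for DNA repair, mitochondrial function and RNA processing. The cortex is a mixture of neurons and glia. All 10 neuronal, excitatory and inhibitory marker genes checked had a peak, among them Snap25, a vesicle fusion protein, at 20.3-fold. Of 9 markers of astrocytes, oligodendrocytes and microglia, 6 had a peak, among them the astrocyte glutamate transporter gene Slc1a2 at 20.0-fold and the microglial Cx3cr1 at 3.13-fold. The astrocyte marker Gfap and the microglial marker P2ry12 had none, and neither had the choroid plexus marker Ttr and the liver, muscle and T cell markers Alb, Myod1 and Cd3e. Of the 25 marker genes only the endothelial Pecam1 belonged to a pair.

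The starts of a pair lay close together, with a median spacing of 129 bases (quartiles 66.5 and 240) and a range of 0, for starts at the same base, to 987 bases. The intervals of 10 pairs are printed because they stand for the kinds of pair described below: pairs with genes of mitochondrial proteins, a narrow peak, a peak lopsided to each side, a pair of tissue-restricted genes, a histone pair, and pairs without a peak. Pairs are named with the minus-strand gene first and the plus-strand gene after it. Each sequence is the plus strand of the mm10 reference, 5' to 3', which is C57BL/6J, whereas the animals carried 1 CAST/EiJ genome copy as well. Each begins just after the start of the minus-strand gene and ends just before that of the plus-strand gene, so all are intergenic between these 2 starts. Capitals mark matches, on either strand, to the motif letters spelled out further below. Klc4/Mrpl2 lies at chr17:46646023-46646228, Gm27021/Cox4i1 at chr8:120668080-120668221, Sdhd/Timm8b at chr9:50603813-50603909, Scnm1/Lysmd1 at chr3:95134012-95134087 and Ddx5/Cep95 at chr11:106789186-106789251. Cep57l1/Sesn1 lies at chr10:41809872-41809934, Col4a4/Col4a3 at chr1:82586850-82586920 and Hist2h2ac/Hist2h2be at chr3:96220881-96221118. The 2 intervals without a peak are Patl2/Terb2 at chr2:122186190-122186271 and 4930430F08Rik/1700017N19Rik at chr10:100590424-100590483.
Klc4/Mrpl2: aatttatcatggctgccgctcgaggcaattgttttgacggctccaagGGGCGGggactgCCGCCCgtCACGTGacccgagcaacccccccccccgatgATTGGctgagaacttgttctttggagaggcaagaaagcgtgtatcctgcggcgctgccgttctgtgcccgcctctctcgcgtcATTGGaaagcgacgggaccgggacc
Gm27021/Cox4i1: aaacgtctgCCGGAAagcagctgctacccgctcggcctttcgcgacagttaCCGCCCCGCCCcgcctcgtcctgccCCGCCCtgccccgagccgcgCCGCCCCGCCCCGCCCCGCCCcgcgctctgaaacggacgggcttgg
Sdhd/Timm8b: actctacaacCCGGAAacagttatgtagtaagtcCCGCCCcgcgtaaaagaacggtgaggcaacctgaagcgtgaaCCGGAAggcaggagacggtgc
Scnm1/Lysmd1: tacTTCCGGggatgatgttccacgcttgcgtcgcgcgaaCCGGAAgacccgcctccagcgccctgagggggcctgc
Ddx5/Cep95: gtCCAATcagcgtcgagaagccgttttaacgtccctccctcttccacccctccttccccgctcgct
Cep57l1/Sesn1: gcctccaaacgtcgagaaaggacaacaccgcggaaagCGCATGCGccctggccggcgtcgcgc
Col4a4/Col4a3: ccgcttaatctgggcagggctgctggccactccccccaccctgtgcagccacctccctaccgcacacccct
Hist2h2ac/Hist2h2be: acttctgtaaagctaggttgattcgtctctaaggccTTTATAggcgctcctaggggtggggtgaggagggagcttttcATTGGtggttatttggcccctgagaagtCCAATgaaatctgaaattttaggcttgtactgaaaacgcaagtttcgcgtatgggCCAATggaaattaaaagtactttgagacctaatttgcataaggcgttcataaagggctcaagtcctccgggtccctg
Patl2/Terb2: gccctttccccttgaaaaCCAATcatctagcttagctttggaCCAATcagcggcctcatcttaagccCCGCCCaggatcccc
4930430F08Rik/1700017N19Rik: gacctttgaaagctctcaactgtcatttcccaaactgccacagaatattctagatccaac

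Of these, the Gm27021/Cox4i1 interval held 7 matches to the GC box and 22 CpG dinucleotides in 142 bases, and Cox4i1 encodes a subunit of cytochrome c oxidase. The interval of Sdhd/Timm8b, a respiratory complex II subunit beside a mitochondrial import chaperone, held 2 ETS cores in 97 bases. Col4a4/Col4a3, which encode chains of basement membrane collagen, had none of the motifs searched and 2 CpG dinucleotides. The Hist2h2ac/Hist2h2be interval held 3 CCAAT boxes and 1 TATA box. The 4930430F08Rik/1700017N19Rik interval had no motif match and no CpG dinucleotide.

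Nearly all pairs carried the mark. A replicated peak lay at 724 of the 755 pairs, or 95.9% (95% Wilson interval 94.2 to 97.1%, which covers counting error only). Pool J had a peak at 720 pairs (95.4%) and pool I at 722 pairs (95.6%), so the 2 pools differed at 2 pairs. These were Nisch/Sema3g and Nup62cl/Pih1h3b, each with a peak in pool I and none in pool J. Another 2 pairs had a replicated peak and none in either pool list, namely Kctd19/Lrrc36 with 209 bases at 2.93-fold and Stap2/Mpnd with 327 bases at 4.93-fold. Among single genes, the 5'-most start had a replicated peak within 500 bases in 1425 of 1489 pair genes (95.7%, interval 94.5 to 96.6%) and in 58.1% of 20449 other protein-coding genes (interval 57.4 to 58.8%). Over all protein-coding genes the share was 60.7%. The corresponding shares were 95.2% of pair genes and 56.9% of other genes in pool J, where it was 59.5% over all genes. In pool I they were 95.4% of pair genes and 57.8% of other genes, against 60.3% over all genes. With the stricter rule that the peak must cover the start itself, 92.1% of pair genes and 53.9% of other genes were marked, against 56.5% over all genes. In tissue of mixed cells, fewer cells with the mark and less mark in each cell cannot be told apart.

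At most pairs 1 peak ran over both starts. This held for 642 pairs in the replicated list, 88.7% of those with a peak, for 623 pairs (86.5%) in pool J and for 652 pairs (90.3%) in pool I. Separate peaks covered the 2 starts at 33 pairs in the replicated list, 42 for pool J and 29 for pool I. A peak covered 1 start and left the other uncovered at 40 pairs in the replicated list, 46 for pool J and 32 for pool I. At 9 pairs in each list the peaks covered neither start. At the 40 replicated pairs with 1 start covered, it was the start of the minus-strand gene in 19 and of the plus-strand gene in 21. The uncovered start lay a median of 82.5 bases from the nearest peak edge, and within 100 bases in 24 of the 40. Counted by peak, 622 of the 768 peaks covered both starts of a pair and 105 covered 1 start. A further 40 lay in the flanks and 1, of 188 bases at 2.41-fold, lay wholly between the starts. Peaks over both starts had a median width of 2351 bases at 23.0-fold, peaks over 1 start 1244 bases at 20.2-fold and flank peaks 1004.5 bases at 17.1-fold.

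Peaks at pairs were wider than other promoter peaks at the middle of the distribution and not at its upper end. Their median width in the replicated list was 2208 bases (quartiles 1632.5 and 2706.75, n = 768 peaks), against 1819 bases (quartiles 1273 and 2527, n = 11948 peaks) at other promoters. In pool J the medians were 2052 bases at pairs and 1772 bases at other promoters, and in pool I 2294 bases at pairs and 1862 bases at other promoters. Over the pools the median was 2173 ± 171 bases at pairs and 1817 ± 63.6 bases at other promoters, a difference of 356 ± 107 bases (SD, n = 2 pools). The difference was thus of the same sign in each pool and larger than its spread between pools, while the quartile ranges of the 2 kinds of peak overlapped widely. Peaks under 1000 bases made up 7.81% of those at pairs and 16.4% of those at other promoters. Peaks over 4000 bases made up 5.99% at pairs and 6.13% at other promoters, and the widest peak had 7072 bases at a pair and 16583 bases at another promoter. The authors' enrichment was also higher, with a median of 22.3-fold at pairs and 19.8-fold at other promoters. It was 21.7-fold at pairs and 19.6-fold at other promoters in pool J, and 22.3-fold at pairs and 19.7-fold at other promoters in pool I, a difference of 2.34 ± 0.381 (SD, n = 2 pools). The difference of enrichment moved with the CpG content of the promoters. In the 2 highest of 5 classes of the CpG ratio described further below it was 0.982 and 0.749, against 2.56 over all peaks.

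**Figure D1:**
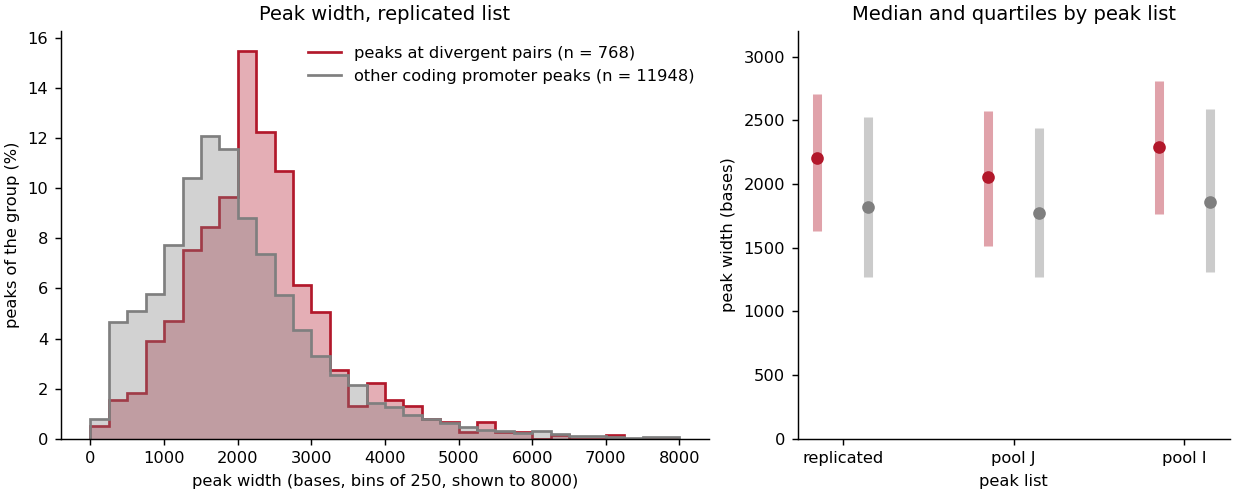
Left, share of replicated peaks in 250-base classes of width for the 768 peaks at divergent pairs (red) and the 11948 other promoter peaks (grey). Right, median width in bases with quartiles in the replicated, pool J and pool I lists. The medians at pairs, 2208, 2052 and 2294 bases, each lie above those at other promoters, 1819, 1772 and 1862 bases.

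Width and enrichment moved together, so widths were also set side by side within quintiles of enrichment over all promoter peaks, a split chosen after seeing the data. In the lowest quintile, from 1.80-fold to 11.8-fold, the median width was 1015 bases at pairs and 811 bases at other promoters. In quintiles 2 to 5 it was 2021, 2183, 2206 and 2467 bases at pairs, against 1697, 1999, 2111.5 and 2246.5 bases at other promoters. The difference kept its sign in every quintile and was 94.5 bases in quintile 4. Pairs were spread unevenly over the quintiles, with 8.20% of their peaks in the lowest and 28.5% in the highest. The width of a peak over both starts includes the space between them.

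The position of the peaks differed as well. A peak over both starts reached a median of 1058 bases into the minus-strand gene and 1065.5 bases into the plus-strand gene (n = 642 pairs). At single promoters, whose gene was in no pair and whose start was covered by a peak, the reach was 1319 bases downstream into the gene and 577 bases upstream (medians, n = 11001). It ran there to the outermost edges of all peaks within 500 bases of the start, those of pairs left out. At pairs it ran to the edges of the 1 peak over both starts. Where a single promoter had several peaks its reach thus spans them, and the effect of this on the comparison was not tested. Taken over both genes, the reach at pairs had quartiles of 822 and 1375 bases, the downstream reach at single promoters 956 and 1907 bases, and the upstream reach 387 and 831 bases. The reach at pairs was 1016 bases in pool J, where single promoters had 1265 bases downstream and 560 upstream. In pool I it was 1093 bases at pairs, and 1360 bases downstream and 593 upstream at single promoters. The reach into a gene body was thus shorter at pairs than at single promoters in each list, by 257 bases in the replicated list, and longer than the upstream reach at single promoters. Both sides exceeded 500 bases at 88.5% of pairs and 57.9% of single promoters. Single promoters with no start of an opposite-strand gene within 1000 bases reached 1311 bases downstream and 536 upstream (n = 8827).

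By these reaches, peaks over pairs were less one-sided than those at single promoters, and neither strand was favoured. The shorter side measured a median of 0.684 of the longer side at pairs and 0.415 at single promoters. The longer side was under 2 times the shorter at 74.6% of pairs and 37.9% of single promoters. The longer side lay on the plus-strand gene at 48.4% of pairs. Plus and minus are labels of the reference, so this share does not bear on how one-sided the peaks were. At single promoters, where sides were set by the direction of transcription, the longer side lay downstream at 89.7%. The longer side alone had a median of 1290 bases at pairs and 1359 bases at single promoters, and the shorter side 885 bases at pairs and 560 bases at single promoters. The difference between pairs and single promoters was therefore larger on the shorter side. Across pairs the 2 reaches had a Spearman rho of 0.03 (n = 642 pairs, whose 2 values come from the same peak). Across single promoters rho between downstream and upstream reach was 0.23 (n = 11001).

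The side on which a peak was longer recurred between pools. At the 617 pairs with 1 peak over both starts in each pool, an edge differed between pool J and pool I by a median of 93 bases, and 78.3% of edges lay within 200 bases of each other. The 2 sides of a peak differed from each other by a median of 383 bases for pool J and 415 bases for pool I. The longer side was on the same gene in each pool at 541 pairs (87.7%). Of 88 pairs whose sides differed by over 1000 bases in pool J, 86 had the longer side on the same gene in pool I.

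The highest point of the peaks mostly lay inside a gene and seldom between the starts, an interval that was short beside the peak. The median spacing of pairs was 129 bases, and peaks over both starts had a median width of 2351 bases. At the 642 pairs the highest point was in the minus-strand gene at 293 (45.6%), in the plus-strand gene at 328 (51.1%) and between the starts at 21 (3.27%). Whether 3.27% is less than the length of the interval would give was not tested. Pool J had 300 in the minus-strand gene, 310 in the plus-strand gene and 13 between, and pool I had 311, 319 and 22 in the same places. The point inside a gene lay a median of 215 bases past that gene's start (quartiles 170 and 310, n = 621), with 209 bases for pool J and 221 bases for pool I. At single promoters the highest point lay a median of 221 bases downstream of the start and was downstream at 89.8%. This median was taken over all 11001 single promoters, with upstream points as negative, and so is not quite the measure used at pairs. At pairs the highest point was on the longer side of the peak at 68.3% of 621. All 21 points between starts were at pairs spaced over 200 bases, with 6 at spacings up to 300 bases, 7 up to 500 bases and 8 up to 1000 bases. These were 7.79, 13.5 and 18.2% of the pairs with a peak over both starts in those classes, so the share rose with the spacing.

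Among the widest peaks at pairs were some over genes of RNA processing and some over genes of neurons. The peak of Cdc40/Wasf1, a splicing factor gene beside the gene of the actin regulator WAVE1, measured 7072 bases at chr10:40879603-40886674, with 5461 bases for pool J and 7117 for pool I. It reached 3708 bases into Cdc40 and 3199 into Wasf1, and its edge in Cdc40 lay at 2197 bases for pool J and 3726 for pool I. Ncdn/AU040320, whose Ncdn encodes neurochondrin, a protein of neurite outgrowth, had 6488 bases, with 6116 for pool J and 4005 for pool I, and reached 5023 bases into Ncdn and 1358 into AU040320. The Hnrnpa2b1/Cbx3 peak, over an RNA-binding protein gene and a heterochromatin protein 1 gene, measured 5853 bases in the replicated list and 6089 in pool I, but was 2 peaks of 2536 and 2404 bases in pool J. By contrast Nlgn2/Tmem256 was alike in all 3 lists, with 5753 bases, and 5831 for pool J and 5800 for pool I, and reached 3962 bases into Nlgn2, the neuroligin of inhibitory synapses, and 1060 into Tmem256. Pusl1/Acap3, a pseudouridine synthase-like gene and an Arf GTPase-activating protein gene, had 5547 bases, and 5509 for pool J and 5701 for pool I, with 1316 bases in Pusl1 and 4189 in Acap3. The widest peak at a pair without a peak over both starts was that of Srgap2/Fam72a, where 5539 bases covered Srgap2, a regulator of neuronal migration, and a separate 924 bases covered Fam72a. In pool J these measured 5451 and 902 bases and in pool I 5870 and 982 bases, so the split was in every list.

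Of the 10 pairs of highest enrichment over both starts, only Pusl1/Acap3, at 34.1-fold, was also among the 10 with the widest peaks. Iqcg/Rpl35a, a sperm flagellum gene beside a ribosomal protein gene, had 35.8-fold over 2339 bases, with 33.8-fold for pool J and 36.1-fold for pool I. The Polr1c/Yipf3 peak, over a subunit gene of RNA polymerases I and III and a Golgi protein gene, had 35.7-fold over 2479 bases, with 32.4-fold for pool J and 37.6-fold for pool I. The peak of Klc4/Mrpl2, a kinesin light chain gene and a mitochondrial ribosomal protein gene, had 34.9-fold over 2063 bases, with 32.6-fold for pool J and 35.9-fold for pool I. At Gm27021/Cox4i1 it was 34.9-fold over 3016 bases, with 36.4-fold for pool J and 29.9-fold for pool I. The order of these pairs was thus not the same in the 2 pools. One peak over a single start of a pair was higher than any over both starts, at 38.2-fold over 1575 bases on the start of Lrch4, which encodes a leucine-rich repeat membrane protein. Its partner Fbxo24 had a separate peak of 803 bases in its body.

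The 5 narrowest peaks over both starts had low enrichment, with 1 exception. Hist1h2ah/Hist1h2bk had 601 bases at 7.42-fold, with 643 bases for pool J and 572 for pool I. Il17rb/Chdh, an interleukin receptor gene and the choline dehydrogenase gene, had 842 bases at 7.12-fold, with 960 bases for pool J and 861 for pool I. Smc1b/Ribc2, whose Smc1b encodes a meiotic cohesin subunit, had 876 bases at 7.93-fold, with 909 bases for pool J and 871 for pool I. Gm43720/Stag3, the second also a meiotic cohesin gene, had 938 bases at 9.16-fold. The exception was Scnm1/Lysmd1, with 959 bases at 17.8-fold, which reached 834 bases into the splicing factor gene Scnm1 and 47 bases into Lysmd1. Its widths were 1069 bases for pool J and 948 for pool I.

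The most lopsided peaks reached far into 1 gene and an ordinary or short distance into the other. Mepce/Zcwpw1, the 7SK RNA capping enzyme gene beside a histone reader gene of meiosis, had 4902 bases, of which 4321 lay in Mepce and 437 in Zcwpw1. The pool J peak there had 4388 and 437 bases on those sides and the pool I peak 3919 and 489. Cep57l1/Sesn1, with 4442 bases, reached 818 bases into Cep57l1 and 3559 into Sesn1, a stress-response gene. Ddx5/Cep95, an RNA helicase gene and a centrosomal protein gene, had 5328 bases, with 4264 in Ddx5 and 996 in Cep95, and 5232 bases for pool J and 4543 for pool I.

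**Figure D2:**
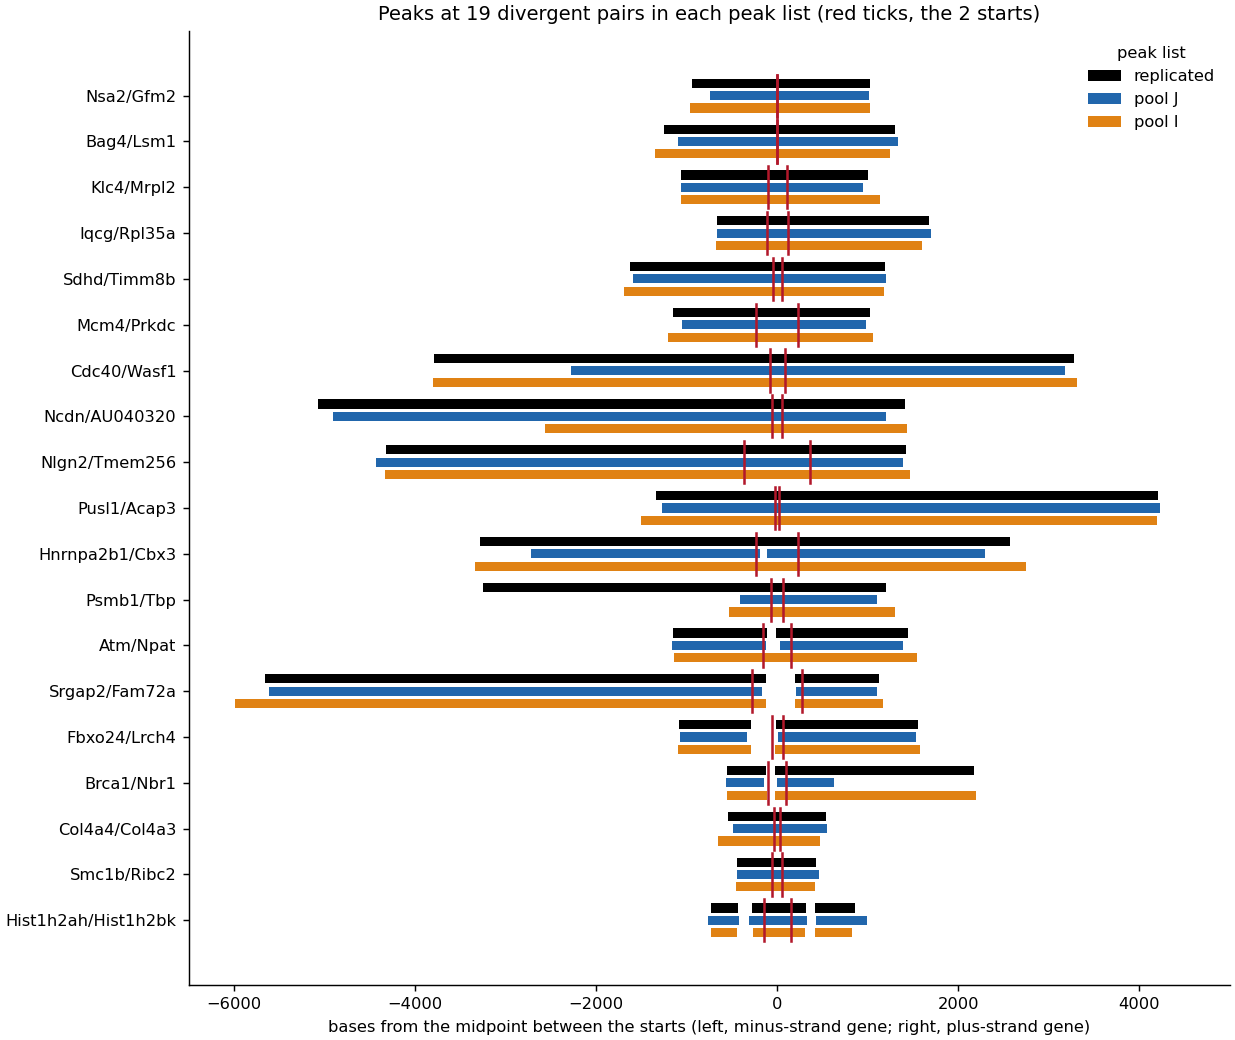
Extent of the peaks at 19 named pairs in the replicated (black), pool J (blue) and pool I (orange) lists, in bases from the midpoint between the 2 starts. Red ticks mark the starts, with the minus-strand gene to the left. The peak of Cdc40/Wasf1 spans 7072 bases, and that of Hnrnpa2b1/Cbx3 is 1 peak in pool I and 2 peaks in pool J.

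Where a pair had 2 peaks, the gap between them mostly fell on the space between the starts. Of the 724 pairs with a replicated peak, 62 had 2 peaks and 2 had 3 peaks. Pool J had 79 pairs with 2 peaks and pool I 56. Both pools had 2 peaks at 45 pairs, 34 pairs had 2 for pool J and 1 for pool I, and 11 had 1 for pool J and 2 for pool I. In the replicated list the gap met the interval between the starts at 55 of 62 pairs, with a median gap of 143 bases and a range of 77 at Lrrc46/Mrpl10 to 387 at Dedd2/Zfp526. In pool J it met the interval at 73 of 79 pairs (median 132 bases) and in pool I at 47 of 56 (median 134 bases). The gap held both starts at 3 of the 55 replicated pairs. Whether a pair had 1 or 2 peaks therefore varied between pools more often than whether it had any. Psmd10/Atg4a, a proteasome assembly gene beside an autophagy protease gene, had 903 and 1041 bases in the replicated list and 888 and 785 in pool J, but a single 2154-base peak in pool I. Brca1/Nbr1, a DNA repair gene beside an autophagy receptor gene, had 429 bases in Brca1 with 420 for pool J and 439 for pool I. Its peak over the Nbr1 start had 2203 bases, with 636 for pool J and 2224 for pool I. Across the 720 pairs with peaks in each pool, the widest peak was a median of 1.07 times as wide in pool I as in pool J (quartiles 1.01 and 1.16), and the 2 pools lay within 1.5 times of each other at 93.2% of pairs. At single promoters the median ratio was 1.06.

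One peak over both starts became less frequent as the starts lay further apart. Such a peak has to be wider than the space between the starts, so part of this fall is given by geometry. How large that part is was not tested. At spacings of 0 to 100 bases, 304 of 313 pairs (97.1%) had a replicated peak and 98.4% of these had 1 peak over both starts. The share with 1 peak over both starts was 85.9% above 100 and up to 200 bases, 81.9% up to 300 bases, 81.3% up to 500 bases and 68.8% up to 1000 bases. Among divergent neighbours spaced beyond the limit, it was 22.9% up to 2000 bases and 1.26% up to 5000 bases. Along the same classes up to 1000 bases, pool J had 97.4, 84.7, 73.4, 78.1 and 68.3% and pool I had 99.0, 88.3, 84.0, 87.5 and 67.2%. The 3 classes from 100 to 500 bases did not keep one order across lists, whereas the class of 0 to 100 bases was highest and that of 500 to 1000 bases lowest in each. The share of marked pairs with 2 or more peaks did not follow the spacing in one direction. In the replicated list it was 1.64, 11.6, 19.1, 18.8 and 9.38% from the closest class to that of 500 to 1000 bases, with 3.30, 13.3, 26.6, 20.3 and 11.1% for pool J and 1.32, 11.2, 14.9, 12.5 and 14.1% for pool I. The share of pairs with a peak moved less, with 96.1, 94, 97.0 and 91.4% in the 4 classes from 100 to 1000 bases, and it was 76.9% at 1000 to 2000 bases. Peaks over both starts had a median width of 2214, 2412, 2339, 2521.5 and 3126.5 bases from the closest to the widest class. Their median reach into a gene was 1055.5, 1068, 1009, 1092.5 and 1177 bases in those classes. The width of such a peak includes the space between the starts, so part of its change over the classes is given by construction.

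**Figure D3:**
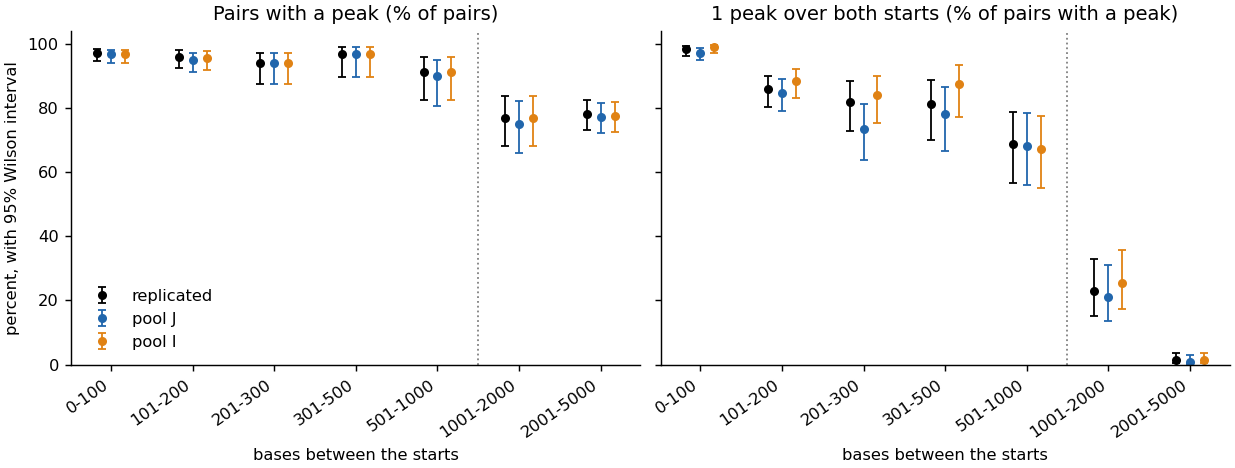
Percent of divergent pairs with a peak, and percent of those with 1 peak over both starts, by class of the spacing between starts in bases, for the replicated, pool J and pool I lists with 95% Wilson intervals. In the replicated list the share with 1 peak over both starts is 98.4% at 0 to 100 bases and 1.26% at 2000 to 5000 bases, while the share with any peak is 97.1% and 78.3%.

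The closest pairs and those at the limit show the range. Nsa2/Gfm2, a ribosome assembly gene and a mitochondrial elongation factor gene, had both starts at the same base (spacing 0). Its 1 peak of 1968 bases, with 1755 for pool J and 1994 for pool I, reached 940 bases into Nsa2 and 1027 into Gfm2. Bag4/Lsm1, a chaperone regulator gene and an mRNA decay gene spaced 1 base, had 2551 bases, with 2431 for pool J and 2604 for pool I. Just inside the limit, Smim7/Tmem38a (967 bases), Zfyve26/Rad51b (978), Asphd1/Sez6l2 (981) and Btf3l4/Txndc12 (987) each had 1 peak over both starts. The widths of these were 4106 bases at Smim7/Tmem38a, 2425 at Zfyve26/Rad51b, 5264 at Asphd1/Sez6l2 and 3956 at Btf3l4/Txndc12. Just outside it, Serpina7/4930513O06Rik (1007 bases) had no peak, and 1 peak ran over both starts at Gpr108/Trip10 (1009), Sgsm2/Tsr1 (1011), Dirc2/Hspbap1 (1019) and Ppt2/Prrt1 (1023). Their widths were 3010 bases at Gpr108/Trip10, 3647 at Sgsm2/Tsr1, 3401 at Dirc2/Hspbap1 and 6543 at Ppt2/Prrt1. Of the pairs named here, only Serpina7/4930513O06Rik was without 1 peak over both starts. Over the wider classes on either side of the limit the share with 1 peak over both starts was 68.8% and 22.9%, as given above. A further 456 divergent pairs overlapped at their 5' ends and were not counted among the pairs. Of their 893 genes in no other pair, 95.2% had a peak within 500 bases of the start, and their peaks had a median width of 2265 bases. These 893 genes were counted with the other genes, and their promoters with the single promoters.

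Membership in pairs differed widely between gene lists, beside 6.79% over all protein-coding genes. Of 67 replication-dependent histone genes, which package newly made DNA, 27 (40.3%) were in pairs, and of 92 DNA repair genes 30 (32.6%) were. Oxidative phosphorylation genes, with assembly factors, had 23 of 94 (24.5%), mitochondrial ribosomal protein genes 18 of 78 (23.1%), and mitochondrial import genes 5 of 25 (20%). Splicing genes had 11 of 58 (19.0%), proteasome genes 8 of 50 (16%), aminoacyl-tRNA synthetase genes 5 of 37 (13.5%) and cytosolic ribosomal protein genes 8 of 83 (9.64%). The 95% Wilson intervals of the last 2 lists, 5.91 to 28.0% and 4.97 to 17.9%, held the share of all genes. So did those of zinc finger Zfp genes with 20 of 394 (5.08%, 3.31 to 7.71%), genes with Slc names with 17 of 371 (4.58%, 2.88 to 7.22%), and neuronal and synaptic genes with 1 of 43 (2.33%, 0.412 to 12.1%), namely Nlgn2. The interval of a short list of housekeeping genes, with 2 of 15 in pairs (13.3%, 3.74 to 37.9%), held the share of all genes too. None of 94 potassium channel genes, 1135 olfactory receptor genes, 53 keratin genes or 16 activity-regulated genes was in a pair. The upper Wilson limits for these were 3.93% for potassium channels, 0.337% for olfactory receptors, 6.76% for keratins and 19.4% for activity-regulated genes, the last above the share of all genes.

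A peak lay at every pair of the lists for repair, mitochondria and splicing, which is near the 95.9% of all pairs. One also lay at all 8 proteasome pairs and all 5 aminoacyl-tRNA synthetase pairs, so this was not particular to those lists. Of the lists with over 10 pairs the histone genes had the lowest enrichment. Taken by pair, the widest peak had a median of 2261 bases and the highest enrichment a median of 22.9-fold over all marked pairs. All 32 pairs with a DNA repair gene had a peak, which ran over both starts at 27, and they had medians of 1842 bases for the widest peak and 21.6-fold for the highest enrichment of a pair. All 23 pairs with an oxidative phosphorylation gene had 1 peak over both starts, with medians of 2437 bases and 22.0-fold on the same scale. Among them were Uqcr10/Zmat5, over a complex III subunit gene, with 29.3-fold, and Atp5h/Kctd2, over an ATP synthase subunit gene, with 28.8-fold. Sdhd/Timm8b had 2821 bases, with 2796 for pool J and 2872 for pool I, at 22.9-fold. All 18 mitochondrial ribosomal protein pairs had a peak, over both starts at 17, with medians of 2045.5 bases and 24.2-fold. All 11 pairs of the splicing list, which counts the mRNA decay gene Lsm1 as a member, had 1 over both starts, with medians of 2313 bases and 25.5-fold. Of 8 cytosolic ribosomal protein pairs, 7 had a peak. The other, Rnf151/Rps2, had its nearest peak 991 bases away.

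The 14 pairs with a histone gene, 12 of them on chromosome 13, included 13 pairs of 2 histone genes. A peak lay at 11 of the 14, where the widest peak of a pair had a median of 1813 bases. The highest enrichment of a pair had a median of 11.3-fold, against 22.9-fold over all marked pairs. The highest was 21.6-fold in a peak of 3678 bases, with 3575 for pool J and 3731 for pool I, which Hist2h2ac/Hist2h2be shared with Bola1/Hist2h2ab. At Hist1h2bh/Hist1h3f the enrichment was 16.2-fold, with 13.6-fold for pool J and 17.9-fold for pool I, and the lowest of the 11 had 7.09-fold. Histone genes are near-identical copies, and the placing of reads that match several copies is not stated, so these values are uncertain.

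Pairs long known as divergent varied in width and enrichment. Of 30 such pairs listed, 8 met the rule and 12 overlapped at their 5' ends. Col4a4/Col4a3 had 1086 bases, with 1039 for pool J and 1120 for pool I, at 8.65-fold, the lowest enrichment of the 8. Mcm4/Prkdc, a replication helicase gene beside the gene of the DNA-dependent protein kinase, had 2167 bases at 23.6-fold, with 2031 for pool J and 2269 for pool I. Mrps12/Sars2, 2 genes of mitochondrial translation, had 1761 bases at 16.8-fold. Gart/Son, a purine synthesis gene and a splicing gene, had 3792 bases, with 3711 for pool J and 3878 for pool I. Others, with Brca1/Nbr1 among them, changed form or width between lists. Atm/Npat, the gene of a DNA damage kinase beside that of a histone transcription coactivator, had separate peaks of 1033 and 1468 bases, with 1035 and 1361 in pool J, but 1 peak of 2688 bases in pool I. Psmb1/Tbp, a proteasome gene and the gene of the TATA-binding protein, had 4451 bases in the replicated list and 1511 for pool J and 1836 for pool I.

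The promoters of pairs were rich in CpG. In a window from 250 bases before to 50 bases after the 5'-most start, the observed-to-expected CpG ratio had a median of 0.849 in pair genes, 0.482 in other genes and 0.728 in other genes with a peak. GC content was 62.3% in pair genes, 54.3% in other genes and 60.3% in other genes with a peak. When all genes were split into quintiles of the CpG ratio, 49.8% of pair genes fell in the highest. From the lowest to the highest quintile, starts with a replicated peak made up 36.0, 49.1, 96.1, 98.4 and 99.2% of pair genes. Among other genes the shares were 6.49, 26.9, 75.4, 94.9 and 97.9%. The shares of pair genes were thus above those of other genes in each quintile, by more in the lower ones. The 2 lowest quintiles held only 25 and 53 pair genes, with 95% Wilson intervals of 20.2 to 55.5% and 36.1 to 62.1%. A peak within 500 bases of a pair gene's start can also be that of its partner, which was not separated here. Median peak widths by quintile were 1561, 1813, 2036, 2223.5 and 2242 bases at pairs, where the lowest quintile held 7 peaks, and 1437, 1476, 1645, 1855 and 2055.5 bases at other promoters.

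**Figure D4:**
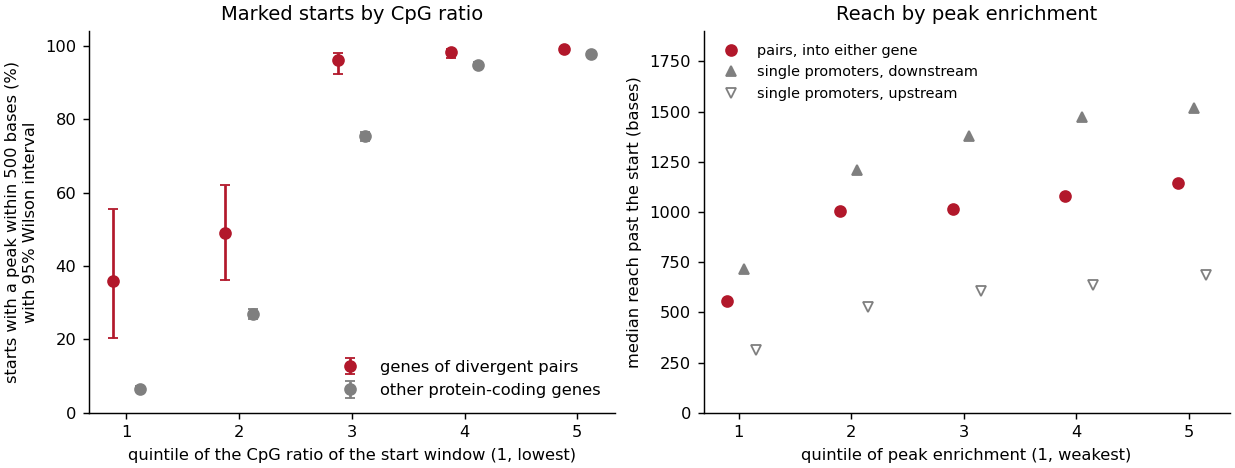
Left, percent of 5'-most starts with a replicated peak within 500 bases by quintile of the observed-to-expected CpG ratio, with 95% Wilson intervals, for pair genes and other genes. Right, median reach of peaks past the start in bases by quintile of enrichment. In the lowest CpG quintile 36.0% of 25 pair genes and 6.49% of 4363 other genes are marked. In the highest enrichment quintile the reach is 1145.5 bases at pairs against 1519 downstream and 684 upstream at single promoters.

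The reach followed enrichment in the same way as width. In the lowest quintile of enrichment it was 558 bases at pairs, against 716.5 downstream and 311 upstream at single promoters. In the highest quintile it was 1145.5 bases at pairs, against 1519 downstream and 684 upstream. The reach at pairs lay between the downstream and the upstream reach of single promoters in all 5 quintiles.

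Motif letters were searched on both strands in the same windows, which overlap for the 2 genes of a close pair and are then not independent. A window began 250 bases before the start, whereas the spacing of pairs had a median of 129 bases and an upper quartile of 240 bases. Most windows of pair genes therefore also held the start of the partner gene. The shares below are per window and not per start, and the effect of the partner's start on them was not tested. The ETS core, CCGGAA, was in 41.1% of windows of pair genes and 15.8% of those of other genes, with 23.8% of other genes with a peak and 17.5% of all 21938 windows. The GC box, GGGCGG, was in 69.0% of pair windows and 41.1% of others (62.5% with a peak, 43.0% of all). The CCAAT box, CCAAT, was in 43.9% of pair windows and 38.7% of others (37.5% with a peak, 39.0% of all). The TATA box, TATAAA, went the other way, with 4.10% of pair windows and 13.3% of others (7.23% with a peak, 12.6% of all). The AP-1 site, TGANTCA, did so too, with 3.16% of pair windows and 7.18% of others (4.51% with a peak, 6.91% of all). Of the CRE site, TGACGT was in 16.4% of pair windows and 8.08% of others (11.1% with a peak, 8.64% of all), and the E2F site TTCCCGC was in 12.4% of pair windows and 5.24% of others (8.05% with a peak, 5.72% of all). The YY1 core AAGATGG was in 10.1% of pair windows and 5.93% of others (6.14% with a peak, 6.22% of all), and the E-box CACGTG in 11.4% of pair windows and 7.49% of others (9.98% with a peak, 7.75% of all). The NRF1 core GCATGCG was in 7.86% of pair windows and 4.41% of others (6.05% with a peak, 4.64% of all), and ACTACAA of the SBS motif in 5.31% of pair windows and 3.58% of others (3.74% with a peak, 3.70% of all). These are matches of letters, and no binding was measured.

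The 31 pairs with no peak in any of the 3 lists included genes known from other tissues. Among them, picked after the values were seen, were Smyd1/Cd8b1, a muscle methyltransferase gene and a T cell coreceptor gene, Duox2/Duoxa2, which serve thyroid hormone synthesis, and Bhmt2/Dmgdh, enzymes of methyl group metabolism in liver and kidney. A further such pair was Patl2/Terb2, genes of oocyte translation and meiotic telomeres. Not all of the 31 were of this kind. Ccnt1/4930415O20Rik, Dgcr2/Tssk2, Slc27a5/Trim28 and Sncg/Mmrn2 were also among them. Of these, Ccnt1, Dgcr2 and Trim28 had a peak at another annotated start, and Sncg had none. Pecam1/Milr1, of endothelium and mast cells, and Aspa/Spata22, of which Aspa is known from oligodendrocytes, include genes of cell types present in cortex. Pecam1 and Aspa each had a peak at another annotated start, which at Pecam1 measured 1465 bases at 5.28-fold. The nearest replicated peak of the 31 pairs lay a median of 19268 bases away, and within 2000 bases at 3 pairs. At 11 of the 31, a peak lay at another annotated start of at least 1 of the genes, and at Best1/Rab3il1 of both, so the lack of a peak at the 5'-most start is not a lack of one at the gene. The windows of the 64 pair genes without a peak within 500 bases had a median CpG ratio of 0.260, against 0.849 over all pair genes, and 4 of them (6.25%) held the ETS core, against 41.1% of all pair genes. The GC box was in 32.8% of them and 69.0% of all pair genes. By contrast the CCAAT box was in 54.7% of them and 43.9% of all pair genes, and the E2F site in 17.2% of them and 12.4% of all pair genes.

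Pairs on the X chromosome stood apart from those on autosomes. A replicated peak lay at 16 of 20 pairs on X (80%, 95% Wilson interval 58.4 to 91.9%) and at 708 of 735 on autosomes (96.3%, interval 94.7 to 97.5%). The median of the highest enrichment per marked pair was 14.1-fold on X, with 14.2-fold for pool J and 13.8-fold for pool I. On autosomes it was 23.1-fold, with 22.6-fold for pool J and 23.3-fold for pool I. Single promoters differed in the same direction, with 44.1% marked and a median of 13.5-fold on X by the same measure, and 59.3% and 20.7-fold on autosomes. The lower enrichment was thus not particular to pairs.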

How the data were processed

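Peak lists of H3K4me3 chromatin immunoprecipitation were deposited on the mm10 build, per the labels. The lists of pool J and of pool I were called on 1 pool each, the list of pooled reads on both pools joined, and the list termed replicated also on both, per the text files deposited with the libraries. Both technical replicates of a pool share 1 alignment and 1 list. Not given in the sources used here are aligner, peak caller, settings and read numbers, so the depth is unknown. Enrichment is the authors' deposited ratio for each peak and served to describe, rank and filter peaks within each list, with medians of the lists set side by side. Filters in alternatives used the deposited −log10 q values, and the deposited display score and −log10 p values were not used. Positions are counted from 1.

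Gene models were GENCODE M21 protein-coding genes, 1 start per gene (the 5'-most), on the GRCm38 reference sequence. Overlap required at least 1 base. Widths, reaches and sequence windows were computed in Python 3.11.15 with numpy 2.4.6, pandas 2.3.3, scipy 1.17.1, pysam 0.24.0, matplotlib 3.10.9 and samtools 1.23.1, and the geometry was tested on simulated data. No condition was compared, so no p-values were computed. Where given, intervals of shares are 95% Wilson intervals and errors of medians are the SD over the 2 pools. Named pairs are those ranked highest in width, enrichment, lopsidedness, pool ratio or closeness, the narrowest, those of the gene lists, the well-known pairs and pairs without a peak, and the 10 printed intervals were picked from them after their values were seen. Pairs named as extremes of the gap, for a difference between lists or as examples without a peak were also chosen after their values were seen. Members, gene lists and motifs were chosen with earlier results of these data known. Alternatives were other peak lists, q limits, flanks, spacing limits, annotations and overlap rules. Some named pairs and 1 marker gene are not reported here.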

Additional observations from a re-analysis of the deposited data

How the results depend on the processing

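No sign changed under any alternative run. The median width at pairs minus that at other promoters, 389 bases as reported, was positive under each of them. It was 280 to 432 bases with 1 pool's list alone. Within quintiles of the CpG ratio it was 124 in the lowest and 186.5 in the highest, and within quintiles of enrichment, added after seeing the data, 204, 184, 94.5 and 220.5 bases in quintiles 1, 3, 4 and 5. The difference of median enrichment, 2.56 as reported, was 2.07 to 2.61 with 1 pool alone, 2.03 with a −log10 q of at least 10, 1.84 with no flank or only peaks over a start, and 1.97 with spacings up to 2000 bases. It was 4.10 with at least 50% of the peak in the window, and 2.96 against others without an opposite-strand start. Within CpG quintiles it was 5.46, 5.27, 2.99, 0.982 and 0.749 from lowest to highest.

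The reach into a gene at pairs minus that downstream at single promoters, -257 bases as reported, was -267 to -249 bases with 1 pool alone, -275 with the −log10 q of at least 10, -274 with flanks of 1000 bases, and -177.5 with pairs overlapping at their 5' ends included. Requiring 50% of the peak in the window brought it to -46 bases and the share of pairs with a peak to 45.6%, since that rule removes wide peaks by construction. The share of pairs with a peak, 95.9% as reported, was 95.4 to 95.6% with 1 pool alone, 95.6% and 95.2% with a −log10 q of at least 5 and 10, and 94.7% and 96.2% with flanks of 0 and 1000 bases. It was 96.4% and 93.5% with spacings up to 500 and 2000 bases, 95.6% with overlapping 5' ends, and 96.1% for pairs with no other gene start in the window, an alternative added after seeing the data. Of marked pairs, 1 peak over both starts was at 81.9% with spacings up to 2000 bases and 84.6% with 50% of the peak in the window, against 88.7% as reported, and at 86.5 to 90.3% with 1 pool alone. The cause of these shifts was not tested.

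No paired analysis was possible because both technical replicates of a pool share 1 peak list and no groups of samples were compared. The number of reads behind the lists is unknown, so a missing peak is one not detectable at this depth, and the effect of depth on the number and joining of peaks was not tested. With 2 pools the SD rests on 2 values, and separate animals are not stated. Single starts per gene leave out promoters used further downstream.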
